A study of Mus musculus with 4 samples.

Results

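The genes described here encode the constitutive proteasome: the subunits of the core particle (Psma and Psmb genes) and of the regulatory particle (Psmc and Psmd genes), without the immunoproteasome subunits Psmb8, Psmb9 and Psmb10. They were taken by symbol from the annotation of an Affymetrix whole-genome mouse array, which names 36 such genes among 18193 genes with a probe set of their own. Each gene was represented by its probe set with the highest mean signal. RNA came from the tibialis anterior, the fast muscle at the front of the shin, and was read on 4 arrays, 1 for each group. The mice were of the C57BL/6J strain and all carried the mdx mutation, which abolishes dystrophin and models Duchenne muscular dystrophy. They were mdx at 1 month, mdx at 3 months, mdx/MMP-2-/- at 1 month and mdx/MMP-2-/- at 3 months. The mdx/MMP-2-/- mice also lack matrix metalloproteinase 2, a secreted protease of the extracellular matrix. There was no wild-type group, and the labels do not say whether muscles of several mice were pooled. With 1 array per group no value has a replicate error and no difference was tested, so "higher" and "lower" describe these arrays.

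The proteasome degrades proteins that carry ubiquitin chains. Its core particle is a barrel of outer alpha rings, which gate the entrance, and inner beta rings, which hold the proteolytic sites. The regulatory particle caps the barrel: its lid and receptors bind ubiquitin and remove the chain, and a ring of ATPases (Psmc genes) unfolds the substrate. In skeletal muscle the pathway takes apart myofibrillar proteins during atrophy, and the transcription factor Nfe2l1 is known to raise the transcription of many subunit genes together when proteasome activity is short. Psmd5, Psmd9 and Psmd10, which the symbol rule also takes in, encode chaperones that help the base of the regulatory particle assemble and are absent from the finished particle.

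The promoters of 5 genes are shown because they include the catalytic subunits Psmb5 and Psmb6 and the genes with the largest differences between arrays, Psmc4, Psmd13 and Psmd5. Sequences are from RefSeq on GRCm38.p6, 250 bases before to 50 after the start, 5′ to 3′ on the gene's strand. Capitals mark matches, on either strand, to TGACNNNGC or TGAGNNNGC, forms of the antioxidant response element core that Nfe2l1 reads, or to CCAAT, the NF-Y box.
Psmb5, chr14:54617946-54618245, minus strand: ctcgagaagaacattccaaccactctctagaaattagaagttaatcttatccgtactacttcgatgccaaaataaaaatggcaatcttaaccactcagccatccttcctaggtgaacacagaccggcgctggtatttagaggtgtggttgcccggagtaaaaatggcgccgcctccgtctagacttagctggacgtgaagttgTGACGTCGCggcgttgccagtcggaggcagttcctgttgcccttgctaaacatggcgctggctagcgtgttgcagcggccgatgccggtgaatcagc
Psmb6, chr11:70525107-70525406, plus strand: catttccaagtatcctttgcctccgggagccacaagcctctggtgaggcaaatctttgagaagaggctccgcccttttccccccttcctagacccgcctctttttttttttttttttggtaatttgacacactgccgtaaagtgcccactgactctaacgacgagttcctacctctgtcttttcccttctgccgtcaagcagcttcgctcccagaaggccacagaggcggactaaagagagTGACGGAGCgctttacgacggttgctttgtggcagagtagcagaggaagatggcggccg
Psmc4, chr7:28050043-28050342, minus strand: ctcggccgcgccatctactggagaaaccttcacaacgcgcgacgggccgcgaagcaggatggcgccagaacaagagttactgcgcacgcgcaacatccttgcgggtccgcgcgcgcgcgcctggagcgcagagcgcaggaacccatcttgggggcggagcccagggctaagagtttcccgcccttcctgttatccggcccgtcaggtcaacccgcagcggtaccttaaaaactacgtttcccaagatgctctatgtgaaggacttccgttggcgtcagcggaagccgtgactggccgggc
Psmd13, chr7:140882144-140882443, plus strand: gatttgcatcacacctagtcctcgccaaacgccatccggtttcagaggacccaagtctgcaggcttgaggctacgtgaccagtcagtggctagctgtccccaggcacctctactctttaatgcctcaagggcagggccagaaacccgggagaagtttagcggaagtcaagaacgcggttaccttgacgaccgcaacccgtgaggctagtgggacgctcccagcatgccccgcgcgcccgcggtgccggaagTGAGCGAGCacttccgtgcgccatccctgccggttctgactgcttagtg
Psmd5, chr2:34870913-34871212, minus strand: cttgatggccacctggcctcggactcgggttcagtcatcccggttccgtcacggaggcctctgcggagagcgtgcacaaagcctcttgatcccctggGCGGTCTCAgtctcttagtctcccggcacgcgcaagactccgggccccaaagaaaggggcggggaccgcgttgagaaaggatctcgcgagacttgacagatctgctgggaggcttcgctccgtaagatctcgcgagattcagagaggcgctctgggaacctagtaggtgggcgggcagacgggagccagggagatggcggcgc

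The Psmb5 and Psmb6 windows each held 1 match to TGACNNNGC, those of Psmd13 and Psmd5 each held 1 match to TGAGNNNGC, and the Psmc4 window held none of the 3 motifs. RefSeq windows were found for 29 of the 36 genes, 31 windows in all. TGACNNNGC occurred in 5 of the 31 (16.1%) against 12.4% of all 32851 promoter windows, TGAGNNNGC in 12 (38.7%) against 17.6%, and CCAAT in 12 (38.7%) against 37.4%. Either of the first 2, which cannot match at the same position of a strand, occurred in 15 of 31 (48.4%) against 27.8%. These matches describe letters, not binding.

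The arrays measured fast muscle: the 8 fast-fibre markers, among them Acta1, Ckm and Myh4, had summed scaled signals of 108427 to 110183 in the 4 groups. Quantile scaling gives the brightest ranks of every array the same values, so the near equality of these sums was largely fixed in advance. With cyclic loess scaling all 8 were lower at 3 months, with median log2 differences of -0.16 in mdx and -0.38 in mdx/MMP-2-/-. With median scaling all 8 were higher in mdx (0.08) and lower in mdx/MMP-2-/- (-0.10). The label MMP-2-/- held, since the 2 probe sets of Mmp2 gave 985 and 974 in mdx against 24.7 and 20.8 in mdx/MMP-2-/- at 1 month, and 805 and 835 against 40.9 and 38.4 at 3 months. Deposited signals had 2% trimmed means of 91.3 to 98.4 in 3 arrays and 124 in mdx/MMP-2-/- at 3 months, and were therefore quantile scaled. Values below are scaled signals, whose floor was 17.4. For Actb, whose 3' and 5' control probe sets show how complete the labelled RNA is, the ratio of 3' to 5' signal was 1.19 and 1.05 at 1 month (mdx and mdx/MMP-2-/-) and 2.36 and 2.09 at 3 months, while that of Gapdh lay between 0.85 and 0.936.

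Of the 36 genes, 34 exceeded the floor: 7 of the alpha ring, 7 of the beta ring, 6 ATPases, 3 base scaffolds and receptors, 8 lid subunits and the 3 chaperones. Psma8, the alpha subunit of germ cells, gave 3.83 to 11.9, and Psmb11, the catalytic subunit of thymic epithelium, gave 0.602 to 7.23, below the floor in all 4 arrays. The mean signals of the 34 measured genes ran from 89.8 to 4330. A total of 6952 genes had a mean signal at or above that of the dimmest of them, Psmd10. These brighter genes serve beside all genes as background, but they are not matched in brightness: 783 of them, against 17 of the 34 proteasome genes, reached the subunits' median signal of 1314.

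The proteasome genes differed little among themselves in each comparison. The SD of their log2 differences was 0.12 and 0.14 between genotypes at 1 and 3 months and 0.20 and 0.25 between ages in mdx and mdx/MMP-2-/-, against 0.24, 0.29, 0.36 and 0.38 over the brighter genes. By their brightest probe sets, their signals also lay in a narrow range over the 4 arrays. The highest array exceeded the lowest by 1.18-fold at the median, from 1.05-fold for Psma2 to 1.66-fold for Psmd13. It did so by less than 25% for 26 of 34 genes (76.5%), against 38.0% of the brighter genes and 31.2% of all 12779 measured genes. It was under 1.5-fold for 32 of 34, the exceptions being Psmc4 and Psmd13. The 8 genes of the CCT chaperonin, another abundant cytosolic complex, had a median of 1.27-fold, and 3 of 8 stayed under 25%. Among genes with a mean signal of 1314 or more, 13 of 17 subunits (76.5%) and 440 of 783 genes (56.2%) stayed under 25%, and the SDs in the 4 comparisons were 0.08, 0.09, 0.19 and 0.21 against 0.14, 0.23, 0.32 and 0.36. The range depended on how the arrays were scaled. With cyclic loess scaling 26 of 34 genes again stayed under 25%, with median scaling 13 (38.2%, against 24.9% of the brighter genes), and with unscaled signals 3 (8.82%, against 11.4%). The range also depended on the probe set. The other bright probe set of Psmb4 ran from 1326 to 2078 and that of Psma5 from 619 to 898, while that of Psma7 ran from 496 to 517. The shares of genes under 25% were not tested.

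The 3 catalytic beta subunits differed little between arrays. Psmb5, which carries the chymotrypsin-like activity, had signals of 2228 in mdx and 2134 in mdx/MMP-2-/- at 1 month, and 2108 and 2254 at 3 months. Psmb6, which carries the caspase-like activity, had 1539 and 1432 at 1 month and 1552 and 1556 at 3 months. Psmb7, which carries the trypsin-like activity, had 1327 and 1231 at 1 month and 1392 and 1410 at 3 months. For Psmb6 and Psmb7 the mdx/MMP-2-/- array at 1 month was the lowest of the 4, and no array stood more than 1.15-fold above another for any of the 3. With median scaling their age differences in mdx/MMP-2-/- were larger, log2 0.38, 0.45 and 0.51. Psmd14, the lid enzyme that removes ubiquitin chains, had 1328 and 1377 at 1 month and 1092 and 1258 at 3 months, with mdx at 3 months the lowest. Psmd4, a ubiquitin receptor, had 768 and 856 at 1 month and 782 and 780 at 3 months, so that mdx/MMP-2-/- at 1 month stood above the other arrays. With median scaling it did not: the log2 genotype difference of Psmd4 at 1 month was -0.01 and its age difference in mdx/MMP-2-/- 0.20.

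The other subunits with little difference fell into a few patterns by array. The ATPases Psmc1 (747 to 874), Psmc3 (1697 to 1897) and Psmc5 (647 to 754), the base scaffold Psmd1 (1375 to 1518) and the lid subunit Psmd12 (1080 to 1220) each had their lowest signal in mdx/MMP-2-/- at 3 months, with the highest array 1.10-fold to 1.17-fold above it. With median scaling that array was not below mdx/MMP-2-/- at 1 month for any of these 5. The alpha ring subunit Psma6 (3864 to 4766, 1.23-fold) and the beta ring subunits Psmb1 (1554 to 1799, 1.16-fold) and Psmb3 (1609 to 1823, 1.13-fold) had their highest signal in that same array. The second bright probe set of Psma6 (1835 and 1796 at 1 month, 1782 and 1653 at 3 months in mdx and mdx/MMP-2-/-) was lowest there, and that of Psmb3 (594 and 629, then 590 and 610) was highest in mdx/MMP-2-/- at 1 month. Psma1 (1112 to 1222) and Psma3 (3534 to 3870), both of the alpha ring, stayed within 1.10-fold.

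**Figure D1:**
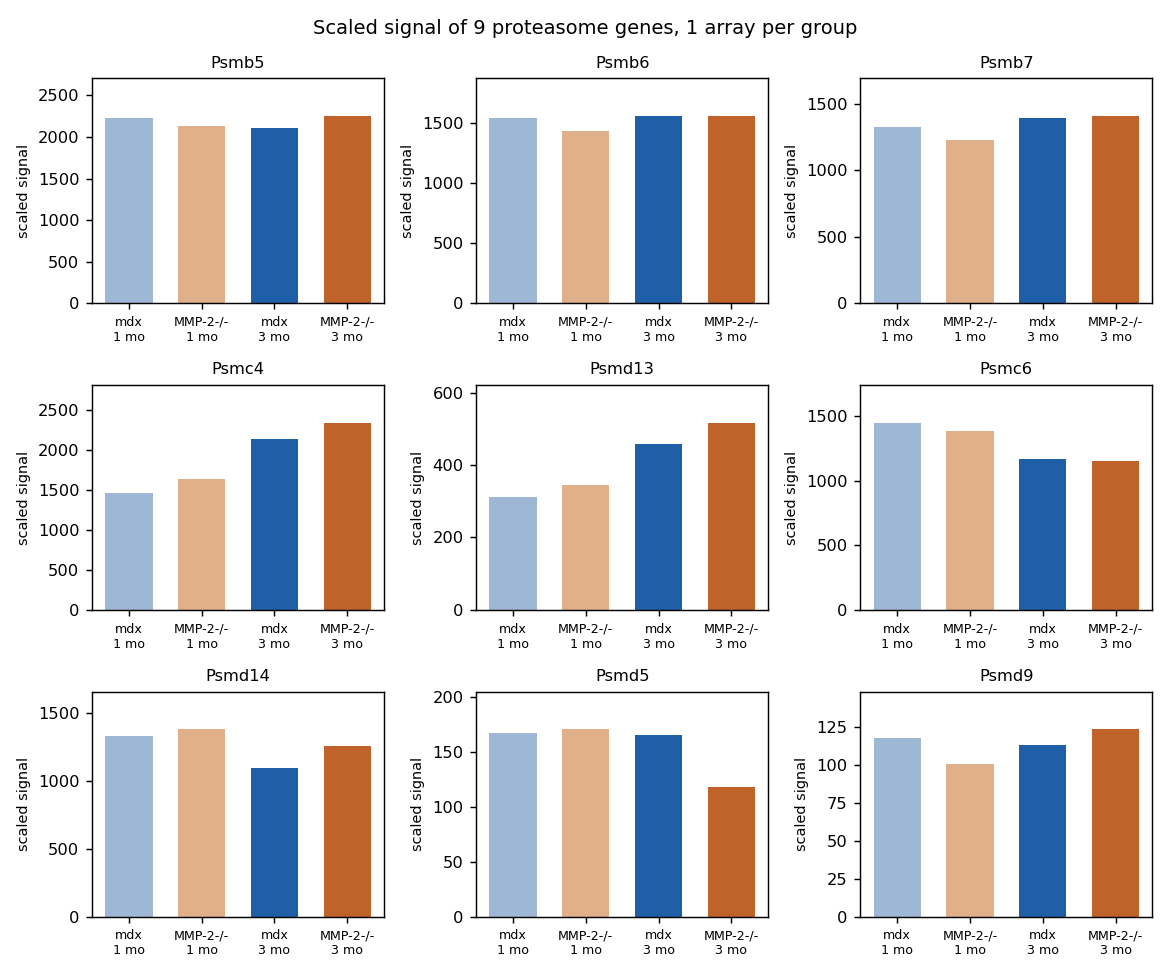
Scaled signal (linear axis from 0) of 9 proteasome genes in each of the 4 arrays, 1 bar per array, with no replicates and no error bars; mo stands for month and MMP-2-/- for mdx/MMP-2-/-. Psmb5, Psmb6 and Psmb7 are nearly level, Psmc4 and Psmd13 stand higher at 3 months in both genotypes, and Psmd5 is lowest in mdx/MMP-2-/- at 3 months.

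The difference between genotypes at 1 month set the mdx/MMP-2-/- array against the mdx array of that age. Of the 34 genes, 18 were higher and 16 lower in mdx/MMP-2-/-, with a median log2 difference of 0.01, against 49.1% of all genes and 48.9% of the brighter genes higher. With scaling by array medians, which placed the median of all genes at -0.10, 3 of the 34 and 1585 of the 6952 brighter genes were higher. None reached 1.5-fold, where 7.44% of all genes and 2.13% of the brighter genes did, and none differed by 25% or more (the higher array over the lower), where 24.2% and 12.9% did. Of 6 markers of regenerating fibres and satellite cells, 5 were lower in mdx/MMP-2-/- (median log2 difference -0.41), and 4 with unscaled signals. Their part in the subunit differences was not tested. Log2 differences of the subunits ran from -0.23 to 0.23.

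At those limits stood genes of several sub-complexes. Psma7, an alpha ring subunit, was 1.17-fold higher in mdx/MMP-2-/- (930 against 792). Psmd3, a lid subunit, was 1.17-fold lower (570 against 668), as was the beta ring subunit Psmb2 (588 against 686) and the chaperone Psmd9 (101 against 118). Next among the higher genes were the chaperone Psmd10 (98.2 against 87.6) and Psmd4. By sub-complex, the beta ring had a median log2 difference of -0.08 with 1 of 7 genes higher, the alpha ring 0.01 with 5 of 7 higher, the ATPases -0.01 and the lid 0.04. The beta ring count was 0 of 7 with median scaling, 1 with cyclic loess scaling and 3 with unscaled signals. Of the 6952 brighter genes 1585, 3455 and 4730 were higher under these scalings, in that order.

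At 3 months the same difference set the mdx/MMP-2-/- array against the mdx array of that age. Of the 34 genes, 22 were higher and 12 lower in mdx/MMP-2-/-, with a median log2 difference of 0.06, against 49.8% of all genes and 47.3% of the brighter genes higher. The count was 24 with median scaling, 26 with cyclic loess scaling, and 33 with unscaled signals, in which all genes had a median of 0.41. The brighter genes higher were 3937, 3301 and 6693 of 6952 in the same order. By probe set rule it was 20 with the mean of all probe sets and 17 with the second brightest, where the median difference was 0.00. None reached 1.5-fold, against 9.85% of all genes and 4.57% of the brighter genes. At 25% or more there was 1 gene, Psmd5, against 29.8% and 20.6%.

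Psmd5 had signals of 167 in mdx and 171 in mdx/MMP-2-/- at 1 month, and 166 and 118 at 3 months. The mdx/MMP-2-/- array at 3 months therefore stood 1.41-fold below mdx of the same age, while the other 3 arrays were nearly equal. Psmd5 has 1 probe set. With unscaled signals its log2 difference at 3 months was -0.03 instead of -0.49, but there the median of all genes was 0.41. Psmd7, a lid subunit, was 1.16-fold lower in mdx/MMP-2-/- (770 against 893) and Psma4, an alpha ring subunit, 1.10-fold lower (1159 against 1269). Both were above 0 with unscaled signals, at log2 differences of 0.21 (Psmd7) and 0.28 (Psma4), but below that median of all genes.

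The genes highest in mdx/MMP-2-/- at 3 months were the scaffold Psmd2 (835 against 705, 1.18-fold), Psmd14 (1.15-fold) and the beta ring subunit Psmb4 (2267 against 1994, 1.14-fold). The 7 beta ring genes were all higher under each of the 4 scalings, although by little. Their median log2 difference was 0.02, with a range of 0.00 to 0.18, in quantile-scaled signals. In unscaled signals 11185 of 12624 genes were higher, so the beta ring count there carries little weight. Core particle genes were higher in 12 of 14 cases and regulatory particle genes in 10 of 20, against 49.8% of all genes. These counts were 11 and 13 with median scaling, 13 and 13 with cyclic loess scaling, and 14 and 19 with unscaled signals. Of the 6952 brighter genes 3937, 3301 and 6693 were higher under these scalings, in that order. Markers of white blood cells moved with this comparison: all 12 macrophage markers were higher in mdx/MMP-2-/- under each scaling, with summed signals of 10231 against 6956, and the 5 measured of 6 neutrophil markers summed to 715 against 139. Of 8 lymphocyte markers, 1 was above the floor in any array. Their part in the small proteasome differences was not tested. In whole muscle, fewer cells of a type and less RNA per cell cannot be told apart.

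**Figure D2:**
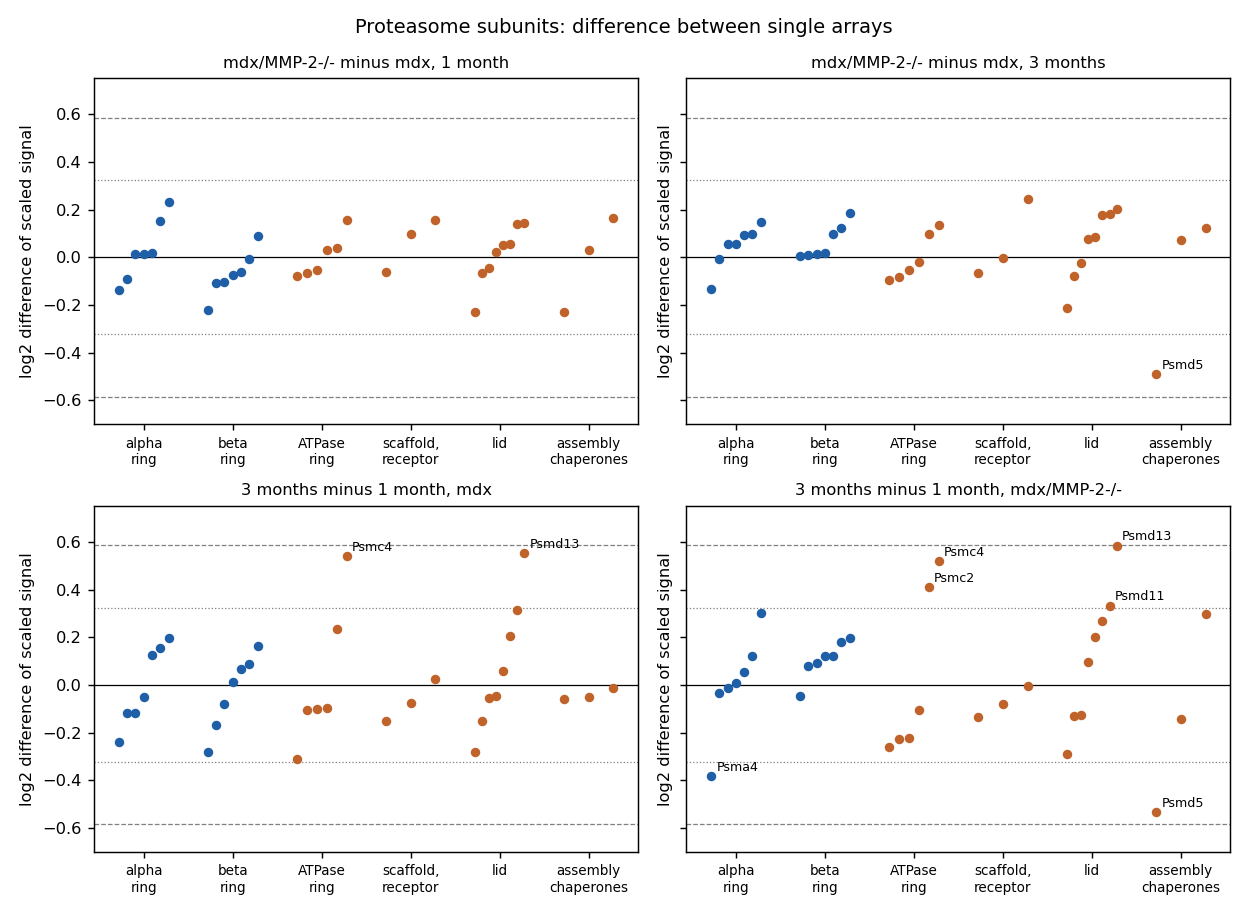
Log2 difference of scaled signal (vertical axis) for the 34 measured genes by sub-complex in the 4 comparisons of single arrays, 1 point per gene, blue for the core particle and orange for the regulatory particle; dotted and dashed lines mark a higher array 25% above the lower and 1.5-fold. No gene passes 1.5-fold, and genes that differ by 25% or more are labelled: 0 and 1 in the genotype comparisons, 2 and 6 in the age comparisons.

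In quantile-scaled signals the genotype difference at 3 months minus that at 1 month was largest for Psmd5 (log2 -0.52), followed by Psmd9 (0.35) and Psmd3 (0.31). This order did not hold with median scaling. There the differences at 1 and 3 months were -0.08 and -0.41 for Psmd5, -0.34 and 0.22 for Psmd9, and -0.38 and 0.13 for Psmd3. Across the 34 genes the genotype differences at both ages, which share no array, had r = 0.08, against 0.08 over the brighter genes. This describes genes measured on common arrays and is no test.

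Age differences in mdx asked how dystrophic muscle with MMP-2 differs between 1 and 3 months. Psmc4 and Psmd13 stood highest. Psmc4, an ATPase of the regulatory particle, had 1467 at 1 month and 2134 at 3 months in mdx, and 1635 and 2342 in mdx/MMP-2-/-. Psmd13, a lid subunit, had 312 and 458 in mdx, and 345 and 517 in mdx/MMP-2-/-. For each gene both 3-month arrays lay above both 1-month arrays: Psmc4 was 1.45-fold higher in mdx and 1.43-fold in mdx/MMP-2-/-, and Psmd13 1.47-fold and, just under 1.5-fold, by a log2 difference of 0.58. The direction held under all 4 scalings, but not in every probe set, as described below.

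In mdx these were the 2 of 34 genes that differed by 25% or more, against 37.9% of all genes and 30.5% of the brighter genes. None was at or past 1.5-fold, against 13.8% and 8.73%. Of the 34, 14 were higher and 20 lower at 3 months, with a median log2 difference of -0.05, where 50.2% of all genes and 50.7% of the brighter genes were higher. With median scaling 25 were higher, as were 4116 of the 6952 brighter genes. Psmd8, a lid subunit, followed at 1.24-fold higher (1294 against 1041). The lowest were the ATPase Psmc6 (1168 against 1448, 1.24-fold lower), Psmb2 (564 against 686, 1.22-fold) and Psmd14 (1.22-fold).

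In mdx/MMP-2-/- the age differences were spread more widely. None of the 34 genes was at or past 1.5-fold, against 14.8% of all genes and 10.6% of the brighter genes, and 6 differed by 25% or more, against 38.9% and 32.9%. Higher were Psmd13, Psmc4, the ATPase Psmc2 (3010 against 2267, 1.33-fold) and the lid subunit Psmd11 (2451 against 1947, 1.26-fold). Lower were Psmd5 (118 against 171, 1.45-fold) and Psma4 (1159 against 1512, 1.30-fold). Psmd7 came next below them (770 against 941, 1.22-fold). For Psma4 and Psmd7 this direction did not hold in every scaling: the log2 difference of Psma4 was -0.03 with median scaling and 0.04 unscaled, and that of Psmd7 0.05 and 0.11. Each of these values still lay below the median of all genes, 0.19 with median scaling and 0.26 unscaled. In all, 18 were higher and 16 lower, against 52.3% of all genes and 51.9% of the brighter genes higher, with a median log2 difference of 0.03 against 0.02 for all genes. The number higher was 32 with median scaling and 33 with unscaled signals, where the median of all genes stood at 0.19 and 0.26. Under these 2 scalings 5493 and 5827 of the 6952 brighter genes were higher.

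The age differences of both genotypes, which share no array, ran alike over the 34 genes. Pearson r was 0.72 and Spearman rho 0.67, against 0.52 and 0.47 over the brighter genes, and 28 of 34 genes had the same sign (82.4%), against 67.3%. The points share arrays, scaling and probe sets, so this is a description. Markers of regenerating fibres and satellite cells moved with age: of 6, all were lower at 3 months in mdx and 5 in mdx/MMP-2-/-, with summed signals of 4157 and 1646 in mdx and 3325 and 1876 in mdx/MMP-2-/-. Endothelial markers were lower at 3 months for 5 of 6 in mdx and 6 of 6 in mdx/MMP-2-/-, with median log2 differences of -0.71 and -0.88 and summed signals of 1433 and 961, then 1616 and 911. Macrophage markers were lower at 3 months for 9 of 12 in mdx (median -0.29) and higher for 11 of 12 in mdx/MMP-2-/- (0.23), and the neutrophil medians were -0.72 and 1.20. Both 3-month arrays also had the higher 3' to 5' ratio of Actb, given above. The part of any of these in the age differences was not tested.

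**Figure D3:**
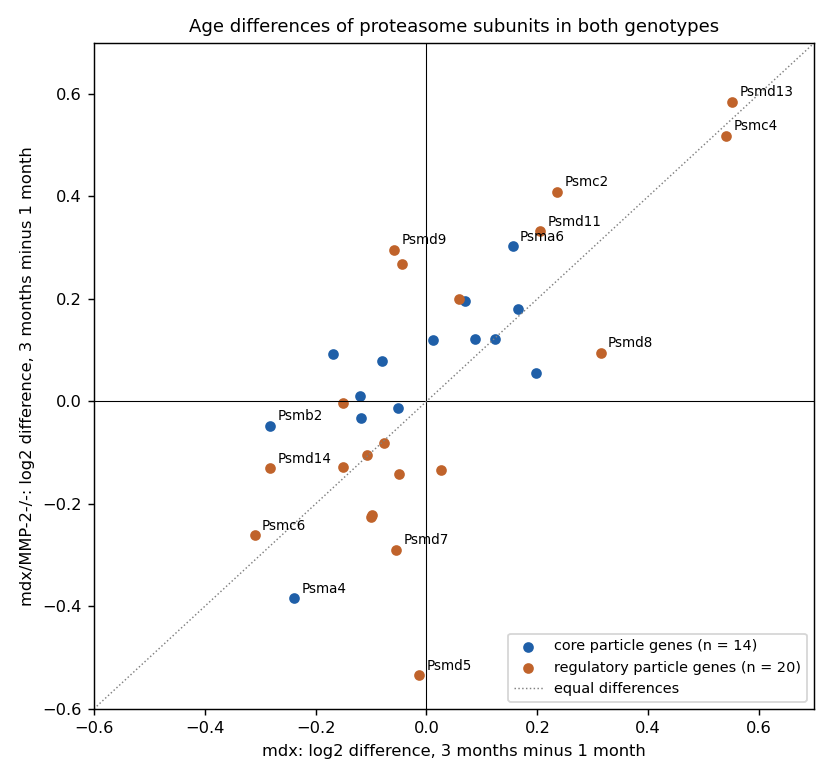
Log2 difference of scaled signal between 3 months and 1 month in mdx (horizontal axis) and in mdx/MMP-2-/- (vertical axis), 1 point per gene, blue for 14 core and orange for 20 regulatory particle genes; the dotted line marks equal differences. Psmd13 and Psmc4 lie at the upper right, and Psmd5 is low in mdx/MMP-2-/- only.

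Core and regulatory particle differed little from each other. The core median log2 difference minus the regulatory was -0.07 for genotype at 1 month, 0.02 for genotype at 3 months and 0.03 for age in mdx. It was 0.18 for age in mdx/MMP-2-/-, where 10 of 14 core genes and 8 of 20 regulatory genes were higher, with medians of 0.09 and -0.09. Of all genes 52.3% were higher. These counts were 13 and 19 with median scaling, 11 and 9 with cyclic loess scaling, and 14 and 19 with unscaled signals. Of the 6952 brighter genes 5493, 3619 and 5827 were higher under these scalings, in that order. The value of 0.18 was 0.09 with the mean of all probe sets and 0.10 with the second brightest probe set. The larger spread lay in the regulatory particle, whose age differences in mdx/MMP-2-/- had an SD over genes of 0.30 against 0.16 in the core. Of the 6 ATPases, Psmc4 and Psmc2 were higher at 3 months in both genotypes and the other 4 lower, again by their brightest probe sets. With median scaling all 6 were higher in mdx/MMP-2-/-.

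Differences depended on which probe set read the gene. Of 15 genes with 2 or more probe sets above the floor in all arrays, 10 in mdx (66.7%) and 8 in mdx/MMP-2-/- (53.3%) had probe sets on opposite sides of 0, against 51.5% and 54.5% of 4309 such genes over the whole array. In the genotype comparisons 7 (46.7%) at 1 month and 8 (53.3%) at 3 months did, against 57.8% and 48.5%. The probe sets of a gene lay 25% or more apart for 4 and 3 of the 15 between genotypes (26.7% and 20%). Between ages they did for 7 and 9 (46.7% and 60%). Over the 4309 genes these shares were larger, 48.9% and 48.7% between genotypes and 60.5% and 65.9% between ages. The second probe set of Psmc4 gave 589 and 553 at 1 month and 572 and 528 at 3 months in mdx and mdx/MMP-2-/-, a log2 age difference of -0.04 and -0.07 against 0.54 and 0.52 for the brightest. It thus did not show the higher 3-month signal. That of Psmd13 gave 160 and 185 at 1 month and 194 and 222 at 3 months, 0.28 and 0.26 against 0.55 and 0.58, on the same side but smaller.

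Like Psmc4, the genes Psma5, Psma6, Psmb3, Psmc2, Psmc6 and Psmd6 had bright probe sets that opposed each other with age in both genotypes. The brightest probe set of Psmc2 gave log2 age differences of 0.24 and 0.41 in mdx and mdx/MMP-2-/-, and its other probe set above the floor -0.36 and -0.42. For the alpha ring subunit Psma5 these were 0.12 and 0.12 against -0.49 and -0.52, and for the lid subunit Psmd6 0.06 and 0.20 against -0.31 and -0.37. For Psma6 they were 0.16 and 0.30 against -0.04 and -0.12, and for Psmb3 0.16 and 0.18 against -0.01 and -0.05. Psmc6 went the other way, with -0.31 and -0.26 for the brightest probe set and 0.32 and 0.40 for the next. The Psmb4 probe sets were opposed in mdx and both above 0 in mdx/MMP-2-/-, -0.17 and 0.09 against 0.35 and 0.65. Psmd11 was the gene with most probe sets above the floor, 4, and all of them were higher at 3 months in both genotypes.

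**Figure D4:**
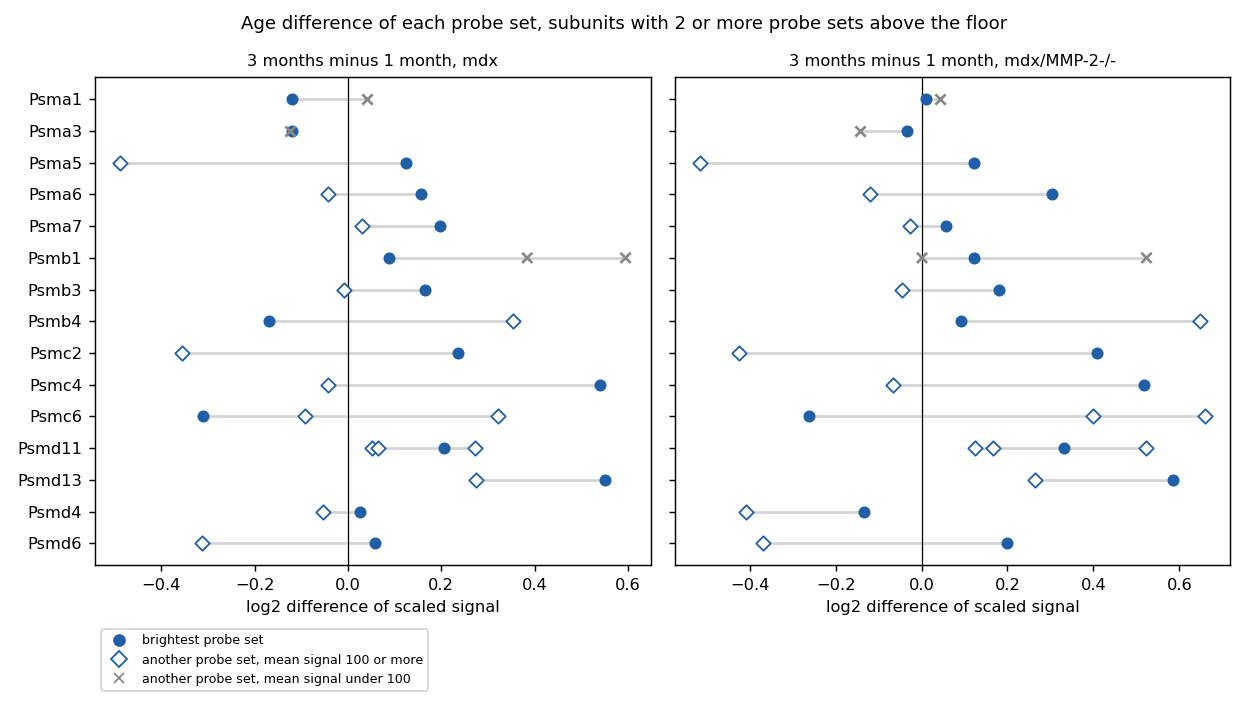
Log2 age difference of scaled signal (horizontal axis) for each probe set above the floor in all arrays, for the 15 subunit genes with 2 or more; filled circles are the brightest probe set, diamonds others with a mean signal of 100 or more, crosses others below 100, and grey lines span a gene. The probe sets of Psma5, Psmc2 and Psmc6 lie on opposite sides of 0 in both genotypes, while those of Psmd11 and Psmd13 lie to the right.

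All 5 _x_at probe sets of the subunits above the floor in all arrays, a type designed with a chance of cross-hybridisation, were higher at 3 months in both genotypes, with median log2 differences of 0.28 in mdx and 0.30 in mdx/MMP-2-/-. Of the 29 probe sets of the plain _at type, 8 and 12 were higher at 3 months, with medians of -0.05 and -0.03. Over the whole array, 57.2% and 70.3% of 1228 _x_at probe sets were higher, against 51.5% and 49.2% of 12227 plain ones. The cause of this difference between probe set types was not tested.

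Immunoproteasome subunits, which replace the catalytic beta subunits in immune cells and under interferon, had lower signals that are not comparable with the others by level. Psmb8 had 122 in mdx and 183 in mdx/MMP-2-/- at 1 month, and 150 and 167 at 3 months, a log2 genotype difference of 0.58 at 1 month, just under 1.5-fold. Psmb9 had 70.7 and 66.4 at 1 month and 71.2 and 77.7 at 3 months, and Psmb10 had 254 and 226, then 229 and 214. Of the 3, Psmb8 was the one higher in mdx/MMP-2-/- at 1 month, and with unscaled signals 2 were.

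Other genes of the pathway were read from lists. All 4 measured activators and inhibitors were lower in mdx/MMP-2-/- at both ages, with median log2 differences of -0.16 and -0.09. At 3 months 1 of 4 was higher with median or cyclic loess scaling and all 4 with unscaled signals. Psme3, a nuclear activator subunit, was 1.27-fold lower at 1 month (141 against 179), Psme1 1.12-fold (555 against 622). Among 8 measured assembly chaperones, which include Psmd5, Psmd9 and Psmd10, 4 were higher in mdx/MMP-2-/- at 1 month and 5 at 3 months, against 2 and 6 with median scaling. Psmg1, which with Psmg2 guides formation of the alpha ring, was 1.52-fold lower at 1 month (148 against 225), and Psmg4 was 1.56-fold higher at 3 months (109 against 70). Pomp, which guides beta ring assembly, had 1607 and 1580 at 1 month and 1503 and 1554 at 3 months.

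Nfe2l1 had signals of 945 and 1000 at 1 month and 987 and 1027 at 3 months in mdx and mdx/MMP-2-/-, so its arrays differed by no more than 1.09-fold. In the same pathway Vcp, the ATPase that extracts ubiquitinated proteins, had 2950 and 2944 at 1 month and 2797 and 2490 at 3 months. The 6 measured regulatory-particle associated factors had median log2 age differences of -0.11 in mdx and -0.15 in mdx/MMP-2-/- (0.15 in the latter with median scaling), with Txnl1, a thioredoxin-like factor, 1.23-fold and 1.24-fold higher and Uchl5, a deubiquitinase, 1.19-fold and 1.13-fold lower. The 4 measured shuttle receptors, which bring ubiquitinated proteins to the proteasome, each differed by less than 25% in all 4 comparisons, and Uba6, an activating enzyme, had 121 to 140. Among muscle ubiquitin ligases, whose products feed the proteasome, Fbxo32 had 323 and 355 at 1 month and 1010 and 572 at 3 months. Its age difference in mdx was 3.13-fold. Trim63, another such ligase, had 2069 and 2444 at 1 month and 2596 and 3183 at 3 months. Of the 5 measured ligases, 3 were higher and 2 lower at 3 months in each genotype, the lower being Trim54 (1094 and 1154, then 927 and 905) and Fbxo21 (85.8 and 89.7, then 80.8 and 82.4). With median scaling 4 were higher in mdx/MMP-2-/- and with unscaled signals all 5.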

How the data were processed

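The deposited values are MAS5 signal intensity per probe set on a linear scale, which the authors made with Expression Console from Affymetrix, according to what the labels and the submitters' processing notes name. Version and target scaling: not given in the sources used here. Among the array's 45101 probe sets, 64 were controls. A single gene symbol stood beside 34945 of the remaining 45037, several beside 932 and none beside 9160. Identifiers of 34741 matched the RefSeq gene table of GRCm38.p6, and no subunit symbol changed. Arrays were quantile normalized in limma 3.58.1 (R 4.3.3), signals below 17.4 (the 50th percentile) were raised to it, and log2 taken. Genes that no array lifted above the floor were dropped, and each comparison also left out those at the floor on both sides. Tables were made in Python 3.11.15 (numpy 2.4.6, pandas 2.3.3). The steps were tested on simulated data in which arrays differed by even offsets and few genes changed. That setting suits quantile scaling, so the choice of scaling was not tested. Subunits and gene lists were chosen with earlier results of these data known. Genes named with values were the 3 highest and 3 lowest subunits of each comparison, Psmb5, Psmb6, Psmb7, Psmd4, Psmd14, subunits with probe sets opposed by 25% or more, the immunoproteasome genes, Nfe2l1, and up to 4 genes of other lists. The sets of brighter genes, the promoters shown and any further named gene were picked with values in view. The number of arrays limits the precision. Alternatives are given in the closing section. No comparison was tested. Listed ubiquitin genes were not analysed here.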

Additional observations from a re-analysis of the deposited data

Results flagged for a closer look

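Psmd9, a chaperone of the regulatory particle base, was lower in mdx/MMP-2-/- at 1 month (log2 difference -0.23) and higher at 3 months (0.12). In quantile-scaled signals it was the one subunit gene whose genotype differences pointed opposite ways at the ages by at least 0.1 each. With median scaling others did too, such as Psmd3 (-0.38 and 0.13). The signals of Psmd9 were low, 101 to 123. With the mean of its 3 probe sets, of which 2 were near or below the floor, the values were -0.08 and -0.08. The difference between the ages was not tested.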

How the results depend on the processing

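Each result was recomputed with 3 other scalings, 2 other floors, a pseudocount of 16 without a floor, 3 other probe set rules and other fold thresholds; the second brightest probe set, a 1.4-fold threshold and the brightness limit of 1314 were added after seeing the data. Of 172 recomputed medians, counts and core-minus-regulatory values, 152 stayed within 0.1 (log2) or 1.5 times. Part of this agreement was fixed in advance, so the share overstates how stable the results are. Both other floors left the subunit counts and core-minus-regulatory values as they were. Choosing by averaged logarithms picked another probe set for 0 of 34 genes. A 2-fold threshold could only repeat the counts of 0 found at 1.5-fold. With median scaling, 3 subunits were higher for genotype at 1 month, 25 for age in mdx and 32 for age in mdx/MMP-2-/-. Of the 6952 brighter genes 1585, 4116 and 5493 were higher there, in that order. The last subunit median was 0.15 above all genes, and 2 and 4 subunits passed 1.5-fold with age in mdx and mdx/MMP-2-/-. Shares of all genes past 1.5-fold under other scalings are not given here. With unscaled signals, 33 were higher for age in mdx/MMP-2-/-, as were 5827 of the 6952 brighter genes. The subunit median of that comparison was 0.16 above all genes. Unscaled, 4, 1 and 6 subunits passed 1.5-fold for genotype at 3 months, age in mdx and age in mdx/MMP-2-/-. For age in mdx/MMP-2-/-, 1 subunit passed 1.5-fold with cyclic loess scaling and 1 with the second brightest probe set, and for genotype at 3 months 1 did with the mean of all probe sets. A 25% threshold was passed by 1, 2 and 6 subunits and the 1.4-fold threshold by 1, 2 and 3, in the order genotype at 3 months, age in mdx, age in mdx/MMP-2-/-. The cause of these shifts was not tested. Core minus regulatory values kept within 0.1 of the values given under every alternative, but that for age in mdx/MMP-2-/- was 0.09 with the mean of all probe sets and 0.10 with the second brightest, against 0.18. The number of subunits above 0 thus depends on the scaling between arrays, as that of the brighter genes does, and on the probe set. No paired analysis was possible because each group has 1 array.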
